A study of Mus musculus with 6 samples.

Results

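The nuclear-encoded subunits of oxidative phosphorylation (OXPHOS) were followed in sorted hematopoietic progenitors of OgaVav-Cre and wildtype mice. The members were the loci whose symbol begins with Nduf, Uqcr or Atp5, with Cox and a digit from 4 to 8, or is Sdha, Sdhb, Sdhc or Sdhd. The deposited table lists 53445 loci, of which 102 matched, and with the longest locus kept for each of 7 repeated symbols 94 members were left. Complex I had 44 of them, complex II 4, complex III 8, complex IV 20 and complex V 18. By role, 83 were subunits and 4 were loci with a merged symbol. Another 7 were assembly factors or other proteins that share the prefix (Ndufaf1 to Ndufaf4, Cox4nb, Atp5s and Atp5sl). Among the merged loci, Ndufs3/Gm12251 and Atp5l/Gm10221 are single-exon loci on other chromosomes than Ndufs3 and Atp5l. Cox4i1/Cox4nb has the span of Cox4i1 and nearly its reads, and Ndufb8/Sec31b contains the Ndufb8 locus. Cox4i1 and Ndufb8 thus enter the counts of members more than once. The mitochondrially encoded subunits were not members and were read as a separate list.

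LSK cells (Lin-Sca+Kit+, the bone marrow fraction that holds stem cells and early multipotent progenitors) came from female C57BL/6 mice of about 12 weeks, with 1 library per mouse and 3 mice in each of the OgaVav-Cre and wildtype groups. In the OgaVav-Cre mice the floxed gene of the O-GlcNAc hydrolase OGA was deleted by a Cre transgene under the Vav promoter, which is active throughout the hematopoietic system, while the controls are labelled wildtype only. The question was whether blocking the removal of O-GlcNAc, a sugar added to nuclear and cytoplasmic proteins, altered transcription in these cells, here for the transcripts of OXPHOS. Total counts were between 25190298 and 27064389 reads in the OgaVav-Cre libraries and between 19318056 and 21684561 in the wildtype ones. With these, 3 reads stood for 0.110 to 0.156 counts per 1000000 (CPM, with library sizes taken over the tested loci and corrected by TMM). Raw reads given below are not scaled for this difference in depth and cannot be compared directly between the genotypes.

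Oxidative phosphorylation is the passage of electrons from NADH and succinate to oxygen, coupled to ATP synthesis in the inner mitochondrial membrane. Complex I (NADH dehydrogenase), complex III (the cytochrome bc1 complex), complex IV (cytochrome c oxidase) and complex V (ATP synthase) are built from subunits of both the nuclear and the mitochondrial genome, and complex II (succinate dehydrogenase) from nuclear genes alone. Hematopoietic stem cells are known for relying largely on glycolysis, with respiration increasing as they leave quiescence and differentiate.

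The genotype labels were first checked against the deleted gene. Oga is listed as Mgea5 (chr19:45824749-45858269, mm9, minus strand). Its reads were 104, 109 and 110 with the deletion and 3164, 2970 and 2736 without it, which left 3.09% of the level in wildtype cells (log2 fold change -5.01, SE 0.17, adjusted p = 5.88e-05). The libraries also differed within genotypes. The summed level of 9 LSK markers was 1186 CPM in OgaVav-Cre replicate 3 and 1567 to 2704 CPM in the other libraries, and the immunoglobulin loci Ighm, Igkc and Igj took between 1.17 and 9.88% of the reads, with the highest share in OgaVav-Cre replicate 1. The summed level of 9 plasma cell markers was 11910 to 111600 CPM in OgaVav-Cre and 12770 to 55580 CPM in wildtype libraries, and that of 8 markers of B cell precursors 250 to 1137 CPM and 277 to 1012 CPM. Kit had between 6884 and 13705 reads and Ly6a, which encodes Sca-1, between 1001 and 4926 reads, so both sort markers were present in every library.

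No nuclear OXPHOS member passed the test for a difference between the genotypes, but most had a slightly higher mean in OgaVav-Cre. Of the 94 members 88 had enough reads to be tested. A call required an adjusted p under 0.05 together with a log2 fold change beyond 1 in either direction, and 0 of 88 were called (quasi-likelihood test of edgeR, Benjamini-Hochberg adjustment over all 22032 loci tested), beside 0.0318% of all loci. The smallest adjusted p was 0.412, for Atp5d. At an unadjusted p below 0.05, 17 members (19.3%) were higher in OgaVav-Cre, beside 4.38% of all loci, and 0 were lower, beside 6.27% of all loci. These shares are not matched for length or precision. The members had a median length of 1550 bases and a median SE of 0.154, against 3128 bases and 0.244 for all loci. Shares by length are given below. The merged locus Atp5l/Gm10221 was among the 17. DESeq2's Wald test gave 14 and limma-voom 21 higher at that level, and neither gave a member with an adjusted p below 0.05.

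The log2 fold change was above 0 in 75 of the 88 members (85.2%), beside 50.5% of all loci. Its median over the members was 0.23, a 1.17-fold difference, beside a median of 0.0041 over all loci. In 28 members all 3 OgaVav-Cre libraries lay above all 3 wildtype libraries in CPM (31.8%, beside 7.5% of all loci), and in 2 they lay below (beside 9.97%). These 2 were Ndufb2 and the assembly factor Ndufaf4. The separation depended on the TMM scaling. In the deposited RPKM, made without it, wildtype replicate 1 lay above OgaVav-Cre replicate 1 for Sdhd (45.84 against 44.3), Uqcrc1, Cox4i1, Cox5b and Atp5c1. How many of the 28 stayed separated in RPKM was not counted. Members are measured in the same 6 libraries and are not independent of each other, so these counts describe the list and are no test of it. For 83 of the 88 members the 95% confidence interval of the log2 fold change lay between -1 and 1, with a median half-width of 0.36, so a 2-fold difference was outside the interval for most members, while 0 was inside it for all but 17.

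**Figure D1:**
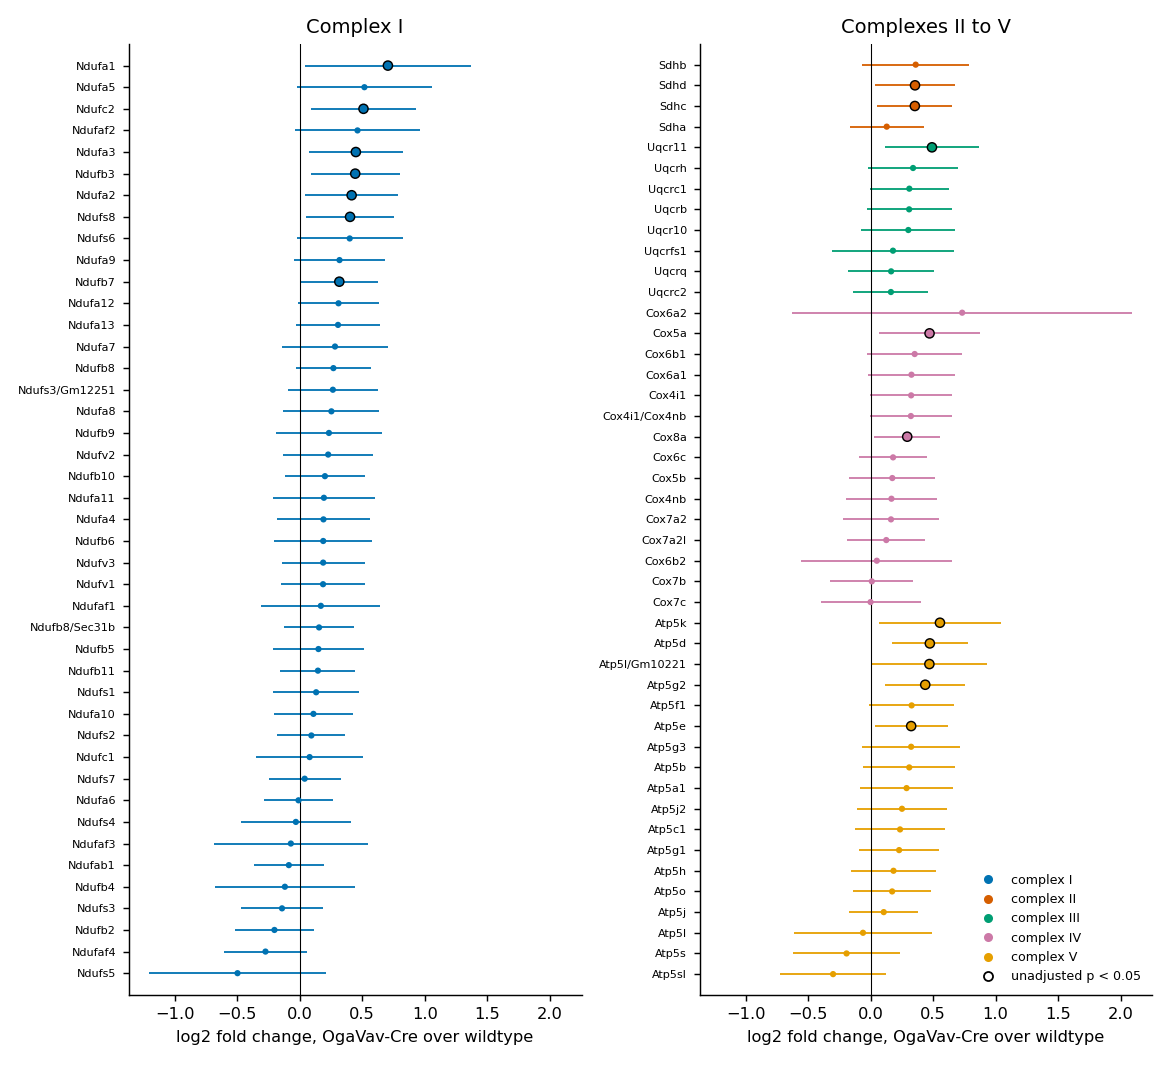
Log2 fold change of OgaVav-Cre over wildtype (x axis) for the 88 members tested, by complex. Points are edgeR estimates and bars 95% confidence intervals, and a black outline marks the 17 members with an unadjusted p below 0.05. Most estimates sit between 0 and 0.5, and the interval of most members crosses 0.

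The higher mean did not come equally from the 6 libraries. For each member the log2 CPM of a library was set against its mean over the 6 libraries, and the median over the 88 members was taken. In the OgaVav-Cre libraries it was 0.12, 0.20 and 0.029 (replicates 1 to 3), and in the wildtype libraries 0.061, -0.17 and -0.25. Wildtype replicate 1 was thus above OgaVav-Cre replicate 3, and by this measure the genotypes overlapped. Wildtype replicate 3 was the lowest of the 6 libraries in 46 members and wildtype replicate 2 in 28, while OgaVav-Cre replicate 2 was the highest in 41 and replicate 1 in 21. Summed over the 83 subunits, the level was 4784, 4909 and 4402 CPM in the mutant libraries (4699 ± 264, SD, n = 3) and 4515, 3747 and 3577 CPM in the wildtype ones (3947 ± 500, SD, n = 3), a ratio of 1.19. Here too wildtype replicate 1 lay above the lowest OgaVav-Cre library.

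Leaving out single libraries moved the count of members with an unadjusted p below 0.05. It was 1 without wildtype replicate 3, 9 without wildtype replicate 2 and 37 without wildtype replicate 1, and 4, 7 and 17 without OgaVav-Cre replicates 1, 2 and 3. The median log2 fold change stayed between 0.15 and 0.32. The count was also 8 with the immunoglobulin share as a covariate, 10 with the deposited RPKM in place of counts and 1 with total counts in place of TMM. With total counts the median of all loci moved to -0.11 and that of the members to 0.12, and the difference between the medians stayed at 0.23. No adjusted p below 0.05 was reached by a member in any of these fits. The share over all loci at an unadjusted p below 0.05 is given for the main fit only. Whether all loci moved with the members therefore cannot be read from these counts. In bulk RNA of a sorted fraction, fewer cells of a type and less RNA per cell cannot be told apart, and the part of the makeup of each library in these values was not tested.

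**Figure D2:**
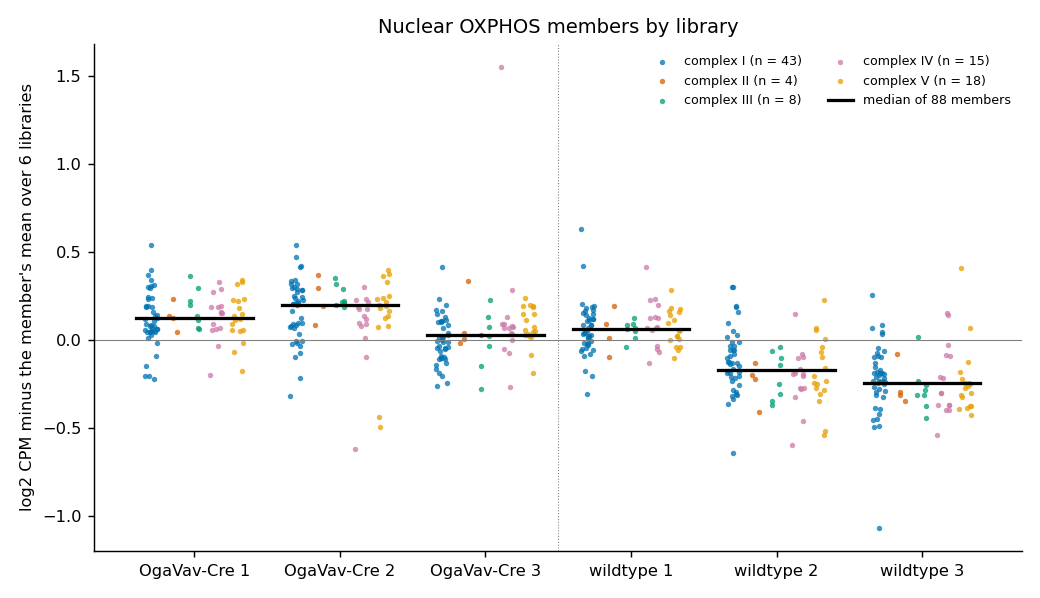
Log2 CPM of each of the 88 tested members minus its own mean over the 6 libraries (y axis), by library (x axis) and colored by complex. Black lines are the medians, which are lowest in wildtype replicates 2 and 3, and the point of complex IV above 1.5 in OgaVav-Cre replicate 3 is Cox6a2.

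Complex I had 43 members tested, of which 34 had a log2 fold change above 0, with a median of 0.19. The 7 core subunits, among them the carriers of the flavin and the iron-sulfur clusters, had a median of 0.13, and the 30 other subunits tested, which stabilize the complex, 0.22. The core loci were longer, with a median length of 2725 bases against 1339 for the others, among which Ndufa4 was counted. The part of length in this difference was not tested. Among the core subunits Ndufs8 (ferredoxin-like iron-sulfur subunit, chr19:3908868-3912774, length 1022 bases) differed most, at 35.3, 41.04 and 36.6 CPM in the OgaVav-Cre libraries, against 31.4, 30.4 and 23.7 CPM in the wildtype ones. Its genotypes did not overlap, and the log2 fold change was 0.40 (SE 0.15, adjusted p = 0.445). Ndufs1, the largest subunit, with several iron-sulfur clusters (length 7064), had a log2 fold change of 0.13 (SE 0.15, adjusted p = 0.764). Ndufv1, the NADH-binding flavoprotein (length 2725), had a log2 fold change of 0.19 (95% interval -0.15 to 0.52).

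The 3 largest estimates of complex I (Ndufa1, Ndufa5 and Ndufc2) were those of accessory subunits. Ndufb3 (membrane arm, chr1:58643228-58652808, length 763) had 16.7, 16.3 and 16.6 CPM in the OgaVav-Cre libraries, against 13.3, 12.4 and 10.8 CPM in the wildtype ones, a log2 fold change of 0.44 (SE 0.15, adjusted p = 0.423). The OgaVav-Cre values lay within 0.5 CPM of each other and above every wildtype value. Ndufc2 (membrane arm, chr7:104548513-104556312, length 754) had 49.2, 55.1 and 39.8 CPM in the OgaVav-Cre libraries, against 40.2, 32.7 and 28.3 CPM in the wildtype ones, and here wildtype replicate 1 lay just above OgaVav-Cre replicate 3 (log2 fold change 0.51, SE 0.18, adjusted p = 0.428). Ndufa3 (length 894) had 15.96, 19.5 and 15.8 CPM in the OgaVav-Cre libraries, against 12.6, 13.3 and 11.6 CPM in the wildtype ones, without overlap (log2 fold change 0.45, SE 0.16, adjusted p = 0.437). The largest estimate of the complex was that of Ndufa1 (X-linked, membrane arm, length 494), at 0.71 with an interval of 0.043 to 1.37. Ndufa1 had 17.5, 13.9 and 16.1 CPM in the OgaVav-Cre libraries, against 11.9, 11.6 and 5.75 CPM in the wildtype ones, with wildtype replicate 3 the lowest, and the estimate was 0.43 without that library. Next was Ndufa5 (length 1395), at 0.52 with an interval of -0.022 to 1.06, whose OgaVav-Cre values of 9.53, 9.38 and 8.43 CPM were above the wildtype values of 7.87, 4.82 and 6.39 CPM. The smallest estimate was that of Ndufs5 (-0.50, interval -1.21 to 0.21, length 2478), which rested on 52, 54 and 65 reads in the OgaVav-Cre libraries, against 88, 45 and 75 in the wildtype ones. Ndufa2 and Ndufb7 were the remaining ones of the 7 members of complex I with an unadjusted p below 0.05 (16.3%, all higher, beside 4.38% of all loci). The 4 assembly factors Ndufaf1 to Ndufaf4 had estimates of 0.17, 0.46, -0.072 and -0.28.

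In complex II all 4 subunits had estimates above 0, with a median of 0.35. Sdhc, a membrane anchor that binds heme b (chr1:173057296-173080734, length 3250), had 52.6, 55.1 and 44.99 CPM in the OgaVav-Cre libraries, against 41.99, 41.03 and 36.5 CPM in the wildtype ones (log2 fold change 0.35, SE 0.13, adjusted p = 0.439). Sdhd, the other anchor (length 1290), had 71.5, 84.6 and 67.4 CPM in the OgaVav-Cre libraries, against 66.1, 56.1 and 52.7 CPM in the wildtype ones (log2 fold change 0.35, SE 0.14, adjusted p = 0.447). In both anchors the lowest OgaVav-Cre value was above the highest wildtype value in CPM, but for Sdhd the genotypes overlapped in the deposited RPKM. Sdhb, the iron-sulfur subunit (length 4563), had the largest estimate of the complex (0.36, interval -0.068 to 0.79), but its genotypes overlapped. Sdha, the flavoprotein that oxidizes succinate (length 8835), had 211, 204 and 189.9 CPM in the OgaVav-Cre libraries, against 204, 167 and 182 CPM in the wildtype ones. The difference in Sdha was the smallest, with a log2 fold change of 0.13 (-0.17 to 0.42), and wildtype replicate 1 was above 2 of the 3 OgaVav-Cre libraries.

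All 8 members of complex III, those with a Uqcr symbol, had estimates above 0, with a median of 0.30. Uqcr11, a small subunit of the complex (chr10:79865742-79869575, length 641), differed most, at 30.7, 30.5 and 24.3 CPM in the OgaVav-Cre libraries, against 23.2, 18.5 and 19.2 CPM in the wildtype ones (log2 fold change 0.49, SE 0.16, adjusted p = 0.416). The core protein Uqcrc1 (length 2087) had 86.7, 91.7 and 86.4 CPM in the OgaVav-Cre libraries, against 84.2, 66.2 and 63.5 CPM in the wildtype ones (log2 fold change 0.31, SE 0.14, adjusted p = 0.477). Its genotypes did not overlap in CPM but did in the deposited RPKM. Its partner Uqcrc2 (length 2551) had the smallest estimate, 0.16 (-0.14 to 0.46), with overlapping genotypes. For the Rieske iron-sulfur protein Uqcrfs1 the longest locus is a single-exon one on the plus strand (chr13:30636702-30639272, length 2571), which overlaps the spliced gene with 2 exons on the minus strand (chr13:30632177-30637231, length 1363). The member had 393, 471 and 338 reads in the OgaVav-Cre libraries, against 338, 227 and 358 in the wildtype ones (log2 fold change 0.18), and the spliced locus 1802, 2007 and 1909 reads against 1600, 1127 and 1271 (log2 fold change 0.29, SE 0.15).

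Complex IV had 15 of 20 members tested, 14 of them above 0, with a median of 0.18. Cox5a, which lies on the matrix side of the enzyme (chr9:57369039-57380234, length 1993), had 53.7, 49.5 and 53.5 CPM in the OgaVav-Cre libraries, against 47.8, 31.9 and 33.3 CPM in the wildtype ones (log2 fold change 0.47, SE 0.17, adjusted p = 0.439). Its genotypes did not overlap, although wildtype replicate 1 lay close to OgaVav-Cre replicate 2. Cox5b, the zinc-binding subunit (length 569), had 16.2, 16.4 and 16.97 CPM in the OgaVav-Cre libraries, against 16.1, 14.5 and 13.4 CPM in the wildtype ones. The genotypes of Cox5b were separated by less than 0.1 CPM and overlapped in the deposited RPKM, and the log2 fold change was 0.17 (-0.17 to 0.52). Cox4i1, the largest nuclear subunit (length 699), had 155, 159 and 145 CPM in the OgaVav-Cre libraries, against 143, 119 and 105 CPM in the wildtype ones (log2 fold change 0.32, SE 0.14, adjusted p = 0.475). Cox7c (length 1149) had the smallest estimate, -0.0017 (-0.40 to 0.40), from 233, 233 and 278 reads in the OgaVav-Cre libraries, against 203, 180 and 257 in the wildtype ones. Scaled to library size the means were 9.90 and 9.91 CPM.

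Complex V, with all 18 members tested and 15 above 0, had a median of 0.27. The 5 subunits of the F1 head, where ATP is made, were all above 0, with a median of 0.31. Atp5d, the delta subunit of the central stalk (chr10:79601377-79608563, length 1928), had the smallest p of all members. It had 81.4, 83.9 and 66.8 CPM in the OgaVav-Cre libraries, against 60.7, 51.4 and 55.04 CPM in the wildtype ones, without overlap, and a log2 fold change of 0.47 (SE 0.13, unadjusted p = 0.0076, adjusted p = 0.412). The catalytic beta subunit Atp5b (length 4619) was the member with the most reads, at 659, 666 and 575 CPM in the OgaVav-Cre libraries, against 611, 456 and 468 CPM in the wildtype ones. Wildtype replicate 1 was above OgaVav-Cre replicate 3 for Atp5b, and the log2 fold change was 0.31 (SE 0.16, adjusted p = 0.524). Atp5c1, the gamma subunit (length 1911), had 110.0, 126 and 111 CPM in the OgaVav-Cre libraries, against 109.8, 106 and 78.6 CPM in the wildtype ones (log2 fold change 0.23, SE 0.15, adjusted p = 0.595). Its genotypes were separated by less than 1 CPM and overlapped in the deposited RPKM.

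In the membrane part of complex V, Atp5g2 and Atp5k were the subunits with the smallest p. Atp5g2, 1 of 3 genes for the c subunit of the proton-driven ring (chr15:102493299-102501478, length 647), had 104, 114 and 91.4 CPM in the OgaVav-Cre libraries, against 85.5, 75.1 and 67.9 CPM in the wildtype ones (log2 fold change 0.44, SE 0.14, unadjusted p = 0.0139, adjusted p = 0.412). Atp5k, the e subunit, which takes part in dimerization of the enzyme (chr5:108862263-108863467, length 716), had 8.69, 8.63 and 7.84 CPM in the OgaVav-Cre libraries, against 6.61, 4.72 and 5.79 CPM in the wildtype ones. Its log2 fold change was the largest of the complex, 0.55 (SE 0.21, adjusted p = 0.445). Both were above wildtype in every OgaVav-Cre library. The smallest estimate was that of Atp5sl (-0.30, -0.72 to 0.12, length 3020), which is no subunit of the enzyme. The 7 members that are no subunits had a median of -0.072, with 3 above 0, and without them and the merged loci the 77 subunits tested had a median of 0.23.

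Because the members share a function, the sequences before their transcription starts were read for 5 motifs bound by factors known to act on nuclear OXPHOS genes. Of the 94 members, 74 were matched to a RefSeq start in GRCm38.p6, with 1 window of 250 bases before to 50 after the start per gene. The NRF1 core GCATGCGC was found on either strand in 14.9% of the members, beside 2.8% of all 27025 promoters. The ETS motif of GABPA, CCGGAAG, was found in 21.6% beside 9.12%, and the YY1 motif AAGATGGCG in 9.46% beside 1.49%. The SP1 motif GGGGCGG was found in 29.7% beside 23.4%, and the E box CACGTG in 9.46% beside 7.24%. Any of the 5 was present in 59.5% of the members and in 35.2% of all promoters, and at least 2 kinds in 21.6 and 7.93%. Among the 17492 promoters of protein-coding genes, 3.61% held the NRF1 core, 11.9% the ETS motif, 1.94% the YY1 motif, 31.1% the SP1 motif and 7.9% the E box. A match describes the letters of a window and no binding was measured here. The 250 bases before the start are given for Atp5g2 (chr15:102671048-102671297, minus strand) and Atp5k (chr5:108434400-108434649, minus strand), which have the NRF1 core on both strands at 1 place, for Uqcr11 (chr10:80406822-80407071, minus strand), which has the ETS motif, and for Cox6a1 (chr5:115348959-115349208, minus strand), which has 3 kinds. The first 3 were among the members with the smallest p, and Cox6a1 was chosen after its window was seen, as an example with several motifs. Of the 10 members with the smallest p, 9 had a RefSeq window, and 4 of these (Atp5d, Cox5a, Ndufb3 and Ndufc2) held none of the 5 motifs. Each is written 5′ to 3′ on the strand of the gene in GRCm38.p6, with the motif letters in capitals, and motifs of different kinds did not overlap in these windows.
Atp5g2: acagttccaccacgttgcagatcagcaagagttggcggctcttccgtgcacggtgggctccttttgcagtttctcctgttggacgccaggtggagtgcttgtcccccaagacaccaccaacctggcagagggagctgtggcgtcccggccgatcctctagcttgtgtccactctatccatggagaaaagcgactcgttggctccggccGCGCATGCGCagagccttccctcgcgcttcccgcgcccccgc
Atp5k: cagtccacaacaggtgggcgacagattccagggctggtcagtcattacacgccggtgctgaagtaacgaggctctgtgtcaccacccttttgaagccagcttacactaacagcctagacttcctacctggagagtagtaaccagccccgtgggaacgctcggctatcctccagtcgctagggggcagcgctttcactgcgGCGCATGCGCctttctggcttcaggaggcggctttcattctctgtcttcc
Uqcr11: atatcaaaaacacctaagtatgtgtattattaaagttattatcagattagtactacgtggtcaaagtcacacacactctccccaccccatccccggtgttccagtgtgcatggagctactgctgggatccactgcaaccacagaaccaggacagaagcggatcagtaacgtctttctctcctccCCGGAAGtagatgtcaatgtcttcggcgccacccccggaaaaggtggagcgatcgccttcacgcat
Cox6a1: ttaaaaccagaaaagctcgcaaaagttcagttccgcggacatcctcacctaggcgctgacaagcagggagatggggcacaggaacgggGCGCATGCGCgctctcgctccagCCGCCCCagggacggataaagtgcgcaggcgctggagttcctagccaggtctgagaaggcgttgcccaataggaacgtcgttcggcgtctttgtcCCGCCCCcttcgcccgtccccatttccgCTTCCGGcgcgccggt

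The estimates of the members moved with the length of their loci, and so did those of all loci. Length is here the summed exon length in bases. All 26 members tested under 1000 bases had an estimate above 0, with a median log2 fold change of 0.34, beside a median of 0.18 and a share of 67.0% above 0 over the 3249 loci of that length. From 1000 to under 2000 bases the medians were 0.20 for 26 members and 0.030 for all loci, and from 2000 to under 4000 bases 0.18 for 21 members and -0.015 for all loci. At 4000 bases and over they were 0.15 for 15 members and -0.034 for all loci. In each length class the members were thus above the median of all loci, by 0.16 to 0.19. At an unadjusted p below 0.05, 38.5, 19.2, 4.76 and 6.67% of the members were higher in the 4 classes, shortest first. Beside these stood 11.3, 4.64, 3.48 and 2.33% of all loci. The last 2 shares of the members rest on 1 member each. All OgaVav-Cre libraries lay above all wildtype ones in CPM in 53.8, 34.6, 19.0 and 6.67% of the members, beside 16.3, 8.2, 6.58 and 4.56% of all loci. With a smooth trend on length removed from every library, the median over the members was 0.21 and the median over all loci 0.031, and 14 members were higher at an unadjusted p below 0.05.

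**Figure D3:**
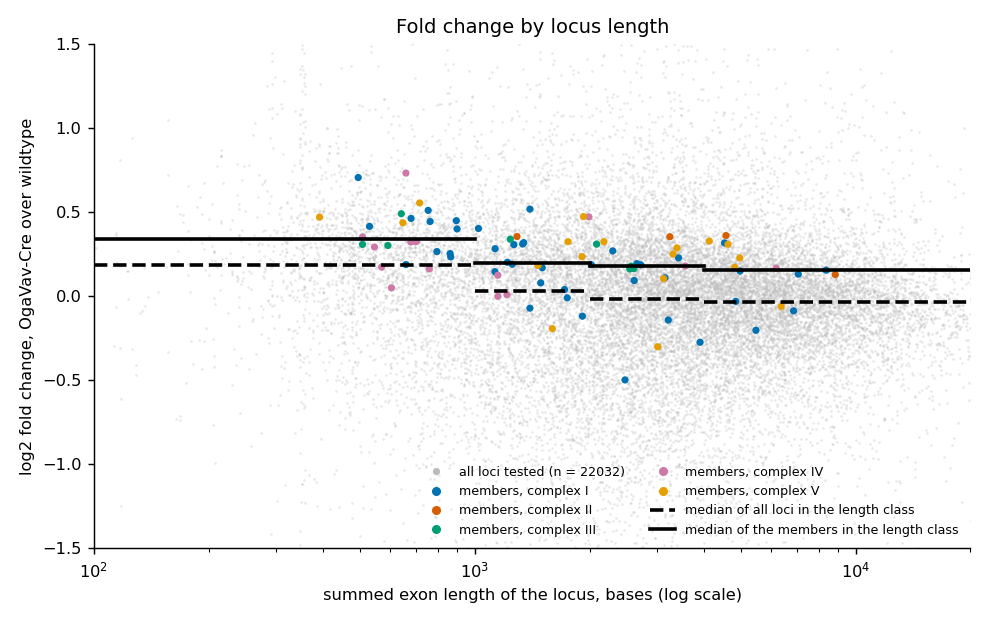
Log2 fold change (y axis, shown from -1.5 to 1.5, values beyond it not drawn) against the summed exon length of the locus in bases (x axis, log scale). Gray points are all loci tested and colored points the members, and the lines give the medians in 4 length classes, dashed for all loci and solid for the members, whose line is the higher one in each class.

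Levels were compared between genes as the deposited RPKM, which is per length. Over the 83 subunits the median of the mean RPKM was 17.7, and 76 were above 1 RPKM. The medians by complex were 14.2 in complex I, 15.6 in complex II, 33.2 in complex III, 14.9 in complex IV and 29.9 in complex V. The subunit with the highest RPKM was Cox4i1 in complex IV, at 186 ± 10.6 RPKM in OgaVav-Cre cells, against 156 ± 23.97 in wildtype cells (SD, n = 3). In complex V it was Atp5g2 with 135 ± 15.6 RPKM in OgaVav-Cre cells, against 105 ± 11.9 in wildtype cells, and in complex I Ndufa4 with 67.2 ± 11.6 RPKM in OgaVav-Cre cells, against 61.8 ± 9.40 in wildtype cells, a subunit first assigned to complex I and since placed in complex IV. Uqcrb led complex III with 56.9 ± 6.30 RPKM in OgaVav-Cre cells, against 48.03 ± 6.00 in wildtype cells, and Sdhd complex II with 49.2 ± 6.86 RPKM in OgaVav-Cre cells, against 40.3 ± 4.83 in wildtype cells. The ranges of the mean ± SD of the genotypes overlapped for these 5 except Atp5g2.

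Where a subunit has several isoforms, those of most tissues prevailed in both genotypes and most tissue-restricted ones were near 0. Cox4i1 stood beside Cox4i2, the isoform linked to low oxygen and to lung, which had 11, 9 and 8 reads in the OgaVav-Cre libraries, against 4, 5 and 2 in the wildtype ones and 0.405 ± 0.0843 RPKM in OgaVav-Cre cells, against 0.199 ± 0.0944 in wildtype cells. Cox8a (88.8 ± 5.79 RPKM in OgaVav-Cre cells, against 76.1 ± 7.59 in wildtype cells) stood beside Cox8b, a muscle isoform with 3 reads in 1 library, and Cox8c, which had 0 reads in every library and thus a level of at most 0.156 CPM by the floor of 3 reads. Cox7b (34.9 ± 3.58 RPKM in OgaVav-Cre cells, against 36.4 ± 5.87 in wildtype cells) stood beside Cox7b2, also at 0 reads in every library. Cox7a2l had 60.8 ± 5.87 RPKM in OgaVav-Cre cells, against 58.3 ± 6.26 in wildtype cells. Cox7a2 had 32.3 ± 1.76 RPKM in OgaVav-Cre cells, against 30.2 ± 6.10 in wildtype cells. Both stood beside the muscle isoform Cox7a1, with 4, 0 and 6 reads in the OgaVav-Cre libraries, against 6, 8 and 12 in the wildtype ones. Ndufa4 stood beside Ndufa4l2, a target of the hypoxia-inducible factor, with 15, 3 and 2 reads in the OgaVav-Cre libraries, against 2, 2 and 6 in the wildtype ones. These 6 low members (Cox4i2, Cox7a1, Cox7b2, Cox8b, Cox8c and Ndufa4l2) were those not tested. Among them the genotypes did not overlap for Cox4i2, which was higher in OgaVav-Cre, and for Cox7a1, which was lower, at counts of 12 reads or fewer. Of the c subunit genes, Atp5g2 was followed by Atp5g3 (43.5 ± 2.09 RPKM in OgaVav-Cre cells, against 36.6 ± 7.70 in wildtype cells) and Atp5g1 (5.22 ± 0.428 RPKM in OgaVav-Cre cells, against 4.67 ± 0.425 in wildtype cells).

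Cox6a2 and Cox6b2 were the tissue-restricted isoforms with more than a few reads. Cox6b2, known from testis, had 128, 115 and 103 reads in the OgaVav-Cre libraries, against 101, 72 and 119 in the wildtype ones (log2 fold change 0.048, -0.56 to 0.65), beside a log2 fold change of 0.35 for Cox6b1. Cox6a2, the heart and muscle isoform, had 111, 93 and 454 reads in the OgaVav-Cre libraries, against 161, 72 and 92 in the wildtype ones. Its 454 reads in OgaVav-Cre replicate 3 set it apart from the other 5 libraries, and the log2 fold change of 0.73 (-0.63 to 2.09) became -0.23 without that library. The same library had the highest summed erythroid markers (3518 CPM, other libraries 325 to 1065 CPM), T cell markers (115 CPM, others 16.1 to 29.4 CPM) and granulocyte and monocyte markers (2362 CPM, others 516 to 1486 CPM), and the part of other cell types in its Cox6a2 level was not tested. Cox6a2 also overlaps Itgad on the other strand, and reads of the 2 strands were evidently not told apart in the counting, as ND5 and ND6 show. Cox6a1, the common isoform, had 72.9, 68.3 and 63.3 CPM in the OgaVav-Cre libraries, against 65.8, 48.4 and 48.99 CPM in the wildtype ones (log2 fold change 0.33, SE 0.15, adjusted p = 0.491).

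**Figure D4:**
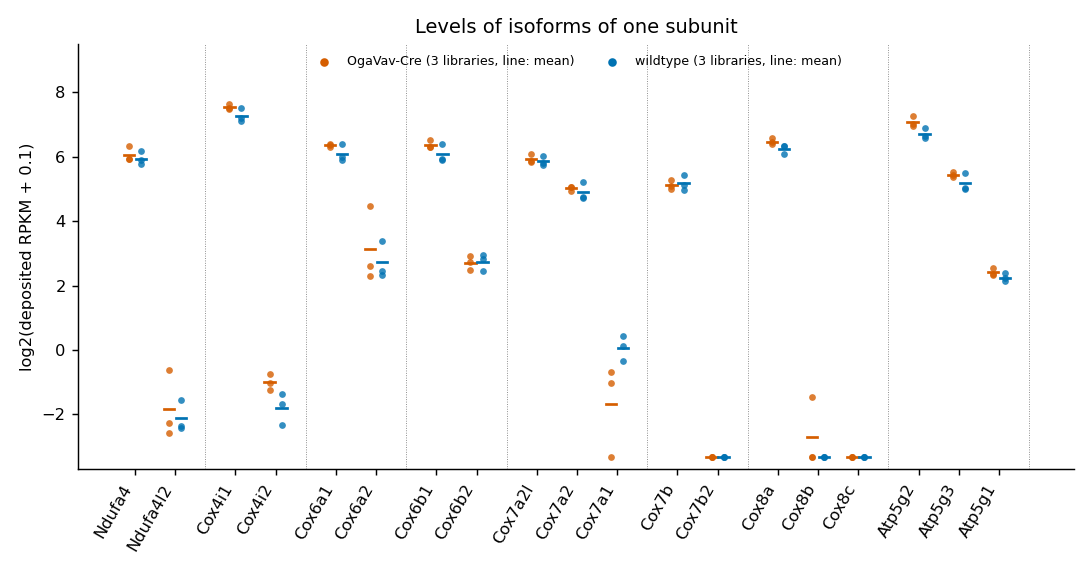
Deposited RPKM of subunit isoforms on a log2 scale after adding 0.1 (y axis), by gene (x axis), with 3 libraries per genotype as points and their mean as a line. In each set the common isoforms sit above the tissue-restricted ones, and loci with 0 reads sit at the bottom of the axis.

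The mitochondrially encoded subunits did not share the higher mean of the nuclear ones. Of 13 genes 10 were found in the table, 2 with an estimate above 0 and 8 below, and the median log2 fold change was -0.11. At an unadjusted p below 0.05, 0 of the 10 were higher and 0 lower. COX1, the catalytic subunit of complex IV, had a log2 fold change of -0.11 (SE 0.18) and CYTB of complex III -0.070 (SE 0.17). Summed over the 10 genes the level was 39150, 51930 and 54400 CPM in the OgaVav-Cre libraries, against 49430, 55840 and 50520 CPM in the wildtype ones. OgaVav-Cre replicate 1 was the lowest, and without it the median was 0.030, so that the direction rested on that library. ND5 and ND6 lie on opposite strands of the mitochondrial genome in overlapping loci, and had 61265 and 60093 reads in OgaVav-Cre replicate 1, and similar pairs in every other library. Reads of a gene and of an overlapping gene on the other strand therefore could not be told apart. The spans of 37 members, introns included, overlap a locus of the other strand, and overlap of exons was not examined. ND4L, COX2 and COX3 are listed at a block on chromosome 1 with near-identical mitochondrial sequence, and their values are uncertain for that reason. The COX3 locus lies within that of COX2, and ND5 and ND6 hold nearly the same reads. The 10 genes are thus not 10 separate measurements, and their sum counts some reads more than once.

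Other mitochondrial lists lay between the nuclear subunits and 0 in their medians, but their loci were longer. Median lengths were 4065 bases in the tricarboxylic acid cycle, 3136 in electron carriers, 3401 in assembly factors and 5689 in biogenesis regulators. Mitochondrial ribosomal loci had 2216 and the members 1550. Members of 4000 bases and over had a median log2 fold change of 0.15. The part of length in the order of the lists was not tested. The 13 genes of the tricarboxylic acid cycle had a median log2 fold change of 0.12, with 12 above 0 and 1, the malate dehydrogenase Mdh2 (0.39, SE 0.16), higher at an unadjusted p below 0.05. The median was 0.071 over 14 electron carriers and cytochromes, 0.0375 over 24 assembly factors outside the symbol rule and 0.054 over 13 regulators of mitochondrial biogenesis, and none of these genes was below 0.05 in either direction before adjustment. The list of electron carriers and cytochromes holds Cyc1 (0.38, SE 0.18), a subunit of complex III that the symbol rule leaves out. The regulators included Ppargc1a (0.069), Nrf1 (0.089), Gabpa (-0.068), Yy1 (0.054) and Tfam (0.051). The ATP synthase inhibitor Atpif1 had a log2 fold change of 0.0028 and the ADP/ATP carriers Slc25a4 and Slc25a5 0.16 and 0.27. Of 76 mitochondrial ribosomal proteins 6 were higher (7.89%, beside 4.38% of all loci) and 2 lower (beside 6.27% of all loci) at an unadjusted p below 0.05, with a median of 0.12.

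Lists of other large complexes had medians of similar size to that of the nuclear OXPHOS members. The 82 cytosolic ribosomal proteins tested had a median log2 fold change of 0.31, with 28 higher (34.1%) and 0 lower at an unadjusted p below 0.05. The 38 proteasome subunits had a median of 0.22, with 7 higher (18.4%) and 0 lower. Of all loci 4.38% were higher and 6.27% lower at that level. No gene of these lists was called. Median lengths were 1526 bases for the ribosomal and 2648 for the proteasome loci. The library medians of the proteasome list were 0.11, 0.19 and 0.055 in OgaVav-Cre and 0.14, -0.18 and -0.31 in wildtype, so that wildtype replicate 1 again lay above OgaVav-Cre replicate 3. The ribosomal list gave 0.13, 0.34 and -0.031 in OgaVav-Cre and -0.13, -0.033 and -0.29 in wildtype.

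**Figure D5:**
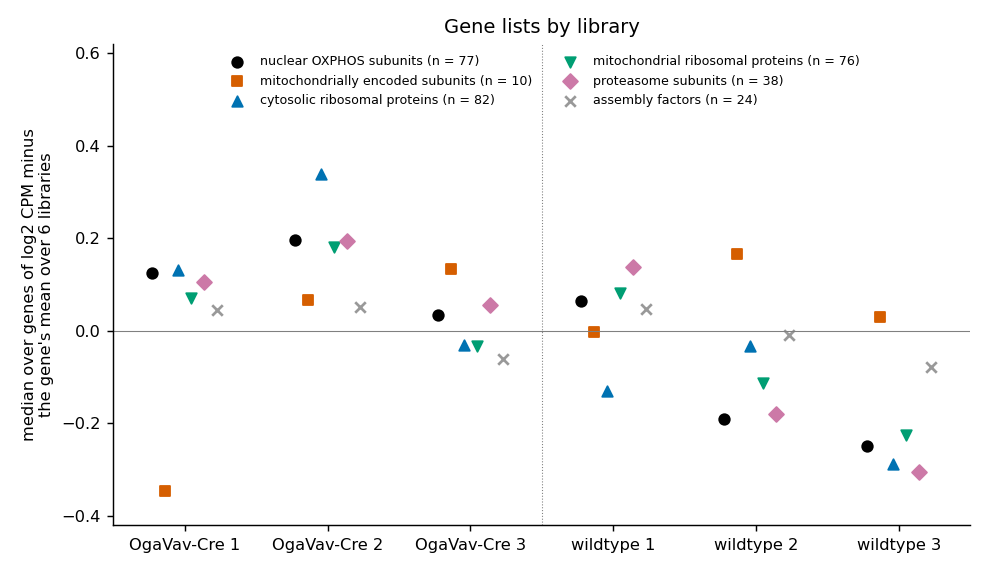
Median over the genes of a list of log2 CPM minus the gene's mean over the 6 libraries (y axis), by library (x axis). The nuclear OXPHOS and proteasome subunits are lowest in wildtype replicates 2 and 3, and the mitochondrially encoded subunits in OgaVav-Cre replicate 1.

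Loci left out because a longer one had the same symbol, mostly single-exon copies, were read as a last check of which locus carried a subunit's reads. The Cox7c locus on chromosome 11 (chr11:75413151-75413547, 1 exon, length 397) had 1933, 2252 and 1839 reads in the OgaVav-Cre libraries, against 1270, 1088 and 1318 in the wildtype ones, more than the member on chromosome 13. Its log2 fold change was 0.49 (SE 0.13, unadjusted p = 0.00669, adjusted p = 0.41 by edgeR), beside -0.0017 for the member. The Atp5g1 copy (chr11:100222932-100223466, length 535) had a log2 fold change of 0.50, beside 0.23 for the member. The Atp5l copy on chromosome 5 (1 exon, length 455) had 0.41, beside -0.062 for the member on chromosome 9. Ndufs3, a core subunit of complex I, had 549, 511 and 624 reads in the OgaVav-Cre libraries, against 499, 515 and 573 in the wildtype ones. The single-exon locus Ndufs3/Gm12251 on chromosome 11, itself a member by the rule, had 713, 813 and 771 reads, against 602, 523 and 501. Scaled to library size, the OgaVav-Cre and wildtype means were 22.4 and 24.8 CPM for Ndufs3, and 30.6 and 25.5 CPM for Ndufs3/Gm12251. The log2 fold changes of these 2 loci were -0.14 and 0.26. How the authors' counting divided reads between such copies is not stated, so the values of Cox7c, Atp5g1, Atp5l and Ndufs3 are uncertain. Loci of other names on the same strand overlap further members, among them Atp5g2 (4 loci), Ndufc2 (3), Cox5b, Cox6b1, Cox8a and Ndufs6 (1 each). The same limit holds for these. Copies of other names elsewhere in the genome were not searched for, and they may affect other members and the ribosomal list.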

How the data were processed

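Poly(A) RNA of sorted LSK cells was sequenced by the authors as single-end reads of 50 bp, aligned to mm9 and summarized per locus with Genomatix. The submitters' processing notes name CASAVA 1.8.2. The version of the aligner, the annotation and the use of strand are not given in the sources used here. The deposited table holds raw counts per locus and library, RPKM made by the authors from the counts and the locus length, and other columns (a normalized expression of unstated definition, means per genotype, and fold changes with p-values of the authors' own comparison), which were not used.

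Differences between genotypes were tested on the deposited counts with edgeR 4.0.16 under R 4.3.3 (TMM, filterByExpr by genotype, glmQLFit and glmQLFTest with genotype as the only term), and p-values were adjusted over all 22032 loci tested by the Benjamini-Hochberg method. Unadjusted p-values in the text come from the same test. The study's methods name DESeq2's Wald test, which was run as an alternative (DESeq2 1.42.0), as was limma 3.58.1. Confidence intervals are at 95% and floors at 3 reads, and floors cover counting error only. No 2 libraries held identical counts. The tests were checked on simulated counts. The pass mark concerned fold changes larger than those of the members and was loosened after the output was seen. Passing it says nothing of differences as small as theirs. Summaries used pandas 2.3.3 and numpy 2.4.6 under Python 3.11.15, and plots matplotlib 3.10.9. Gene lists, motifs and alternatives are those named in the text.

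Genes named are the 10 members with the smallest unadjusted p below 0.05, the highest RPKM and the largest and smallest fold change per complex, core subunits, isoform sets, Mgea5 and up to 2 genes of other lists. The values of 1 core subunit that the rule names are not reported here. Further genes (Ndufa2, Ndufa5, Ndufb7, Ndufs3, the assembly factors, the biogenesis regulators, COX1, CYTB and the copies of members) were chosen after their values were seen. The members and lists were chosen with earlier results of these data known.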

Additional observations from a re-analysis of the deposited data

How the results depend on the processing

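No member had an adjusted p below 0.05 in the main test or in any alternative, and the median log2 fold change over the members stayed above 0 in all of them. The number of members higher at an unadjusted p below 0.05 was 17, and changed to 1 with total counts in place of TMM (where 1 was lower, and the median of all loci moved to -0.11 and that of the members to 0.12), to 10 with the RPKM and a pseudocount of 0.1 or 1, to 8 with the immunoglobulin share as a covariate, and to between 1 and 37 with single libraries left out (0 to 1 lower). In the pathway lists 0 genes were called, and 0 to 1 with a library left out (Rpl34, log2 fold change 1.815, adjusted p = 0.0489 by edgeR, without wildtype replicate 1). With the replicate number as a block 24 members were higher, with a median of 0.25. For none of the alternatives is the share over all loci at that level given beside the count. Same-numbered libraries had correlations of -0.081, 0.26 and 0.32 between their deviations from the genotype means, not all above 0.1, and the numbers were not taken to pair the mice. Taking the Uqcrfs1 locus with 2 exons and leaving out merged loci, an alternative chosen after seeing the data, gave 16 higher and a median of 0.23.

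Some estimates changed sign. Cox6a2, at 0.73 the largest of the members, was -0.23 without OgaVav-Cre replicate 3 and up to 1.14 without another library. Cox6b2 was -0.088 with total counts, -0.026 and -0.024 with the RPKM and a pseudocount of 0.1 and 1, -0.11 with the length trend removed, -0.048 with the immunoglobulin covariate and -0.12 to 0.18 with a library left out. Cox7b was -0.11, -0.052, -0.051 and -0.023 under the first 4 of these and -0.063 to 0.14 with a library left out. Cox7c was 0.012 with DESeq2's size factors in edgeR, 0.0033 without a filter, 0.013 with DESeq2, 0.0037 with the immunoglobulin covariate and -0.038 to 0.069 with a library left out. The cause of these changes was not tested.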
